A study of Mus musculus with 8 samples.

Results

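A set of 10 genes of the Notch pathway, the ligands Dll1 and Jag1, the receptors Notch1, Notch2 and Notch3 and the repressors Hes1, Hey1, Hey2, Heyl and Hes6, were examined in mouse malignant mesothelioma, here a tumour of the lining of the chest cavity. They were found by symbol among the 52636 genes of each count table, and all 10 of the 10 were present and passed the filter on low counts. The members were listed with their levels in these samples known, so the contrast between the genotypes is described for them without a test. In 2 samples, the double knockouts, Nf2 and Cdkn2a were deleted. In the other 6, the triple knockouts, Bap1 was deleted as well, so both groups share the loss of the first pair of genes. The product of Nf2, merlin, regulates the Hippo pathway. The products of Cdkn2a hold back the cell cycle, and Bap1 protein removes ubiquitin from histone H2A. The tumours came from mice with conditional deletions, per the study's title and design text, which name the disease as pleural. The labels describe growth in RPMI 1640 with serum, antibiotics, glutamine and insulin. Strain, age, the driver of the deletions, and whether each sample came from a separate mouse or culture were not given in the sources used here, so any p-value measures only the spread between these samples.

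Notch signalling passes between touching cells. A Delta-like or Jagged ligand on one cell binds a Notch receptor on its neighbour, the receptor is cut by an ADAM protease and then by gamma-secretase, and the freed intracellular domain joins the DNA-binding protein Rbpj to switch on genes such as Hes1, Hey1 and Heyl, which encode basic helix-loop-helix repressors. In embryonic muscle, Dll1 signalling holds precursor cells back from differentiation, whereas Hes6, a relative that counteracts Hes1, is known from differentiating muscle and nerve cells. In blood vessels, Notch3 and Heyl are known from the mural cells that wrap the vessel wall, and Notch4 and Dll4 from endothelium.

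The 250 bases before the transcription start are printed for Hes6, Dll1 and Notch3, the 3 members past the threshold set over all genes, and for Jag1, a ligand whose mean level differed in the other direction. The sequences are RefSeq's on GRCm38.p6, all on the minus strand and written 5′ to 3′ in the direction of transcription. They cover chr1:91414039-91414288 for Hes6, chr17:15376933-15377182 for Dll1, chr17:32166891-32167140 for Notch3 and chr2:137116521-137116770 for Jag1. The table holds 2 starts for Hes6 and 2 for Dll1, and the start nearest to that of the count tables was used. Capitals mark matches to the E-box CAGCTG, the form bound by muscle-determining factors, or to the N-box CACNAG, a Hes family site.
Hes6: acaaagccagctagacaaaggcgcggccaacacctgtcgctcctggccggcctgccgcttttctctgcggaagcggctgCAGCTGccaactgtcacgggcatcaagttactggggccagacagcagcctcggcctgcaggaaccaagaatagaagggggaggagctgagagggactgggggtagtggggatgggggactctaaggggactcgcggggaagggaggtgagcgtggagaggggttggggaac
Dll1: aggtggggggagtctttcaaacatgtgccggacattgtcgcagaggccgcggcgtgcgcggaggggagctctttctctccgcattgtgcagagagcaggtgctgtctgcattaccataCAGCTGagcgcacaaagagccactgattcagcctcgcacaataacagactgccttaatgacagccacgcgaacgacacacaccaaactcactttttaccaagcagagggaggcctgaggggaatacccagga
Notch3: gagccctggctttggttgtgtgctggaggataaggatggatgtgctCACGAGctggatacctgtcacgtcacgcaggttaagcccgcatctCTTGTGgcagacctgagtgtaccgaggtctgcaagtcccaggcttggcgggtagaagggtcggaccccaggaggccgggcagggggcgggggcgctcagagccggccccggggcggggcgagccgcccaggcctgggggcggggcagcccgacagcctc
Jag1: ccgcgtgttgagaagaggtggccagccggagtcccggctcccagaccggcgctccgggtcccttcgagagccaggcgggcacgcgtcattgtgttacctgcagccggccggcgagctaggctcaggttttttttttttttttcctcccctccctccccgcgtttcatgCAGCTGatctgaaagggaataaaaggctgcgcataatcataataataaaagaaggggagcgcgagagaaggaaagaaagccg
Beside these motifs, the E-box CACGTG, a form that Hes factors bind, was searched for. So was GTGGGAA, a motif of Rbpj. All 4 searches covered both strands. No matches of different motifs overlapped in these windows. CAGCTG began 171 bases before the start in Hes6, 132 before it in Dll1 and 82 before it in Jag1. Of 32841 mouse promoter windows of the same length, 13% hold it. Hes6 and Dll1 were past the threshold and Jag1, whose groups overlapped, was not. The part of this motif in their levels was not tested. CACNAG was in the Notch3 window at 204 and 159 bases before the start, and in 36.7% of all windows. GTGGGAA, in 5.41% of all windows, was matched in 1 of the 7 members with an entry, Hey2. CACGTG, in 6.02% of all windows, was matched in none of the 7 windows. The members with an entry were Hes6, Hey2, Notch1, Notch2, Notch3, Dll1 and Jag1. Their windows were rich in G and C, from 56% in Dll1 to 72% in Notch2, against a median of 52.4% over all windows. The RefSeq start of Notch1 lies 12841 bases inside that of the count tables. The ratio of observed to expected CpG ran from 0.51 in Hes6 to 1.06 in Notch2, against a median of 0.37.

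Total counts ran from 26847202 to 32082535 per sample. Bap1 transcripts were counted in every sample, at 106 and 71.2 CPM (counts scaled to library size with TMM factors) in double samples 1 and 2 and at 43.1 to 72.1 CPM in the triple knockouts (log2 fold change -0.60 ± 0.22 SE, edgeR adjusted p = 0.122). Counts over the whole gene check the labels only weakly. Of 10 mesothelial markers none passed the test. Msln was counted in all samples (12.6 to 342 CPM), whereas Wt1 and Upk3b reached 33.2 and 173 CPM in triple sample 3 and at most 1.76 and 0.365 CPM elsewhere. Double sample 1 stood apart in scaling, with a TMM factor of 0.771 against 0.994 to 1.10 in the others. Without this factor the groups of Notch3 and Heyl overlap.

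Dll1 (chromosome 17, 15367354 to 15376872) encodes a Delta-like ligand. It stood at 35.3 CPM in double sample 1 and 34.9 CPM in double sample 2, and at 7.77, 4.56, 2.44, 7.09, 9.54 and 12.9 CPM in triple knockouts 1 to 6. Without TMM factors the double samples stood at 27.1 and 36.0 CPM, so their closeness depends on the scaling. All 6 triple samples lay below both on either scale, the highest with TMM factors 2.70-fold below the lower double sample. The means were 35.1 ± 0.27 CPM (SD, n = 2) and 7.38 ± 3.68 CPM (SD, n = 6). The log2 fold change was -2.25 ± 0.48 (SE), or 4.75-fold lower in the triple samples. In bulk samples such as these, fewer cells of a type and less RNA per cell cannot be told apart.

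Jag1 (chromosome 2, 137081456 to 137116644), a Jagged ligand, pointed the other way. It stood at 21.6 and 36.8 CPM in the double knockouts and at 52.0, 73.5, 34.6, 32.3, 45.0 and 71.1 CPM in triple knockouts 1 to 6. The groups overlapped, since triple samples 3 and 4 lay between the double samples while the other 4 lay above both. The log2 fold change was 0.82 ± 0.39 (SE), and Jag1 was not past the threshold set over all genes. The value was positive in all 17 alternative fits (0.48 to 1.27). Those fits reuse the same samples, so their shared sign is no separate support.

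Among the receptors, Notch3 (chromosome 17, 32120820 to 32166880) was lower in the triple samples. Notch3 levels were 106 and 164 CPM in the double knockouts and 52.6, 39.8, 37.3, 45.2, 86.6 and 71.5 CPM in triple knockouts 1 to 6. All 6 triple samples were below both double samples, but triple sample 5 was close to double sample 1. The log2 fold change was -1.28 ± 0.33 (SE), or 2.43-fold lower. With CPM from total counts alone, double sample 1 stood at 81.7 CPM and triple sample 5 at 90.5 CPM, so the separation of the groups depends on the scaling.

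Notch1 (chromosome 2, 26457903 to 26516663) did not part the groups. It stood at 71.0 and 64.2 CPM in the double knockouts and between 44.4 and 123 CPM, with a median of 72.7 CPM, in the triple samples. Triple sample 5 was the highest and triple sample 3 the lowest. Notch2 (chromosome 3, 98013527 to 98150361) was the receptor with the most counts in the triple samples, at 110 and 165 CPM in the double and 125 to 240 CPM in the triple knockouts. Fold changes on the log2 scale were 0.19 ± 0.34 for Notch1 and 0.22 ± 0.28 for Notch2 (SE). The range of each gene's double samples held values of triple samples or lay inside their range.

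**Figure D1:**
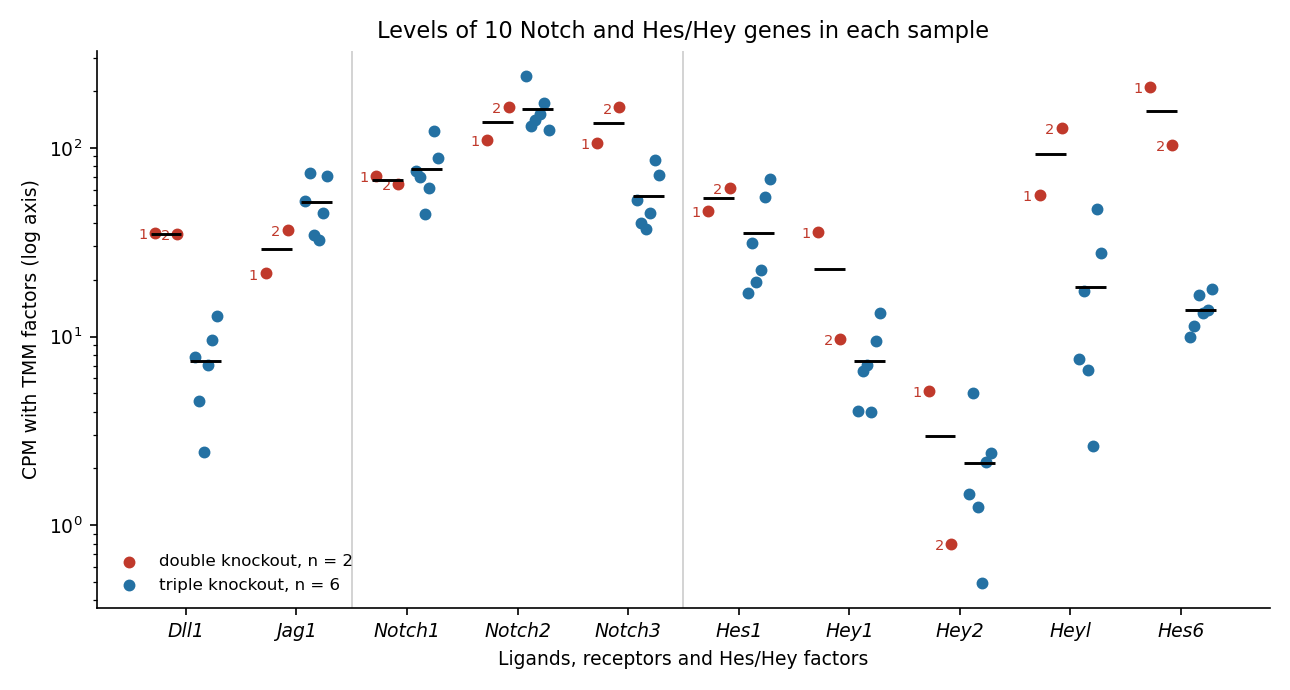
Level of each gene in each sample, in CPM with TMM factors on a log axis; red points are the 2 double samples (numbered), blue points the 6 triple samples in the order 1 to 6 from left to right, and black lines the group means. Hes6 and Dll1 show a gap between the groups, the highest triple sample being 5.81-fold and 2.70-fold below the lower double sample, while Notch1, Notch2, Jag1, Hes1, Hey1 and Hey2 overlap.

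Hes1 (chromosome 16, 30064384 to 30067796), the best-known Notch target, overlapped between the groups. It stood at 46.2 and 61.6 CPM in the double knockouts and at 17.0, 31.3, 19.4, 22.5, 54.6 and 68.5 CPM in triple knockouts 1 to 6. Triple samples 5 and 6 were in or above the range of the double samples, and the other 4 triple samples were below it. On the log2 scale the difference was -0.60 ± 0.52 (SE).

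Hey1 (chromosome 3, 8663359 to 8667256) stood at 35.7 CPM in double sample 1 and 9.68 CPM in double sample 2, against 3.98 to 13.3 CPM in the triple knockouts. Double sample 1 alone was far above the rest, and the log2 fold change of -1.61 ± 0.55 (SE) was -0.40 without it. Hey2 (chromosome 10, 30832359 to 30842801) was the least abundant member, with 15 to 158 counts per sample. Its levels were 5.14 and 0.794 CPM in the double knockouts and 0.497 to 5.00 CPM in the triple knockouts. The double samples of Hey2 differed 6.47-fold and its triple samples up to 10.1-fold, and its log2 fold change of -0.48 ± 0.85 (SE) was 1.42 without double sample 1 and 1.69 among the samples that carry a description code other than SN930.

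Heyl (chromosome 4, 123233556 to 123249875) had the widest range of the 10 genes. It stood at 56.5 and 128 CPM in the double knockouts and at 7.60, 17.5, 6.61, 2.62, 47.5 and 27.7 CPM in triple knockouts 1 to 6. All triple samples were below both double samples, but triple sample 5 was only 1.19-fold below double sample 1, and without TMM factors it was above it (49.5 against 43.5 CPM). On the log2 scale Heyl differed by a mean of -2.33 ± 0.84 (SE). Within the triple genotype alone Heyl varied 18.1-fold.

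Hes6 (chromosome 1, 91411483 to 91414038) showed the largest difference of the 10. It stood at 211 and 104 CPM in double knockouts 1 and 2 and at 9.96, 11.3, 16.6, 13.3, 13.8 and 17.8 CPM in triple knockouts 1 to 6. The double samples differed from each other 2.04-fold and the triple samples by 1.79-fold at most. The lower double sample was 5.81-fold above the highest triple sample. The means were 157 ± 76.0 CPM (SD, n = 2) and 13.8 ± 3.01 CPM (SD, n = 6). The log2 fold change was -3.51 ± 0.28 (SE), or 11.4-fold lower in the triple samples. Hes6 was thus the member with the smallest spread among the triple samples, and Heyl, another member lower in all of them, the one with the largest.

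Of the 10 members, 3 (Hes6, Dll1 and Notch3, all lower) were past the threshold that edgeR's quasi-likelihood test set over all genes. Over the 17709 genes tested, 8.35% were past it, 5.41% lower and 2.94% higher. The groups did not overlap for 4 of the 10 members, all lower, against 11.4% of tested genes that were lower without overlap and 24.1% in either direction. Without TMM factors that count was 2 of 10, Hes6 and Dll1. The shares over all genes were taken with TMM factors only, so they do not match this second count. The median log2 fold change was -0.94 over the members and 0.02 over all genes tested. The members were chosen with this contrast known, so nothing is read from these counts.

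Hes6 was past the threshold in 16 of the 17 alternative fits, Dll1 in 10, Notch3 in 5, Hey1 in 2 and Heyl in 1. Leaving out double sample 1 gave -2.92 for Hes6, -2.25 for Dll1 and -1.57 for Notch3, and leaving out double sample 2 gave -3.92, -2.24 and -0.92. Those fits hold a single double sample, which is assumed to vary like the triple samples. All 17 alternative fits reuse the same samples, and the members were chosen with this contrast known. How many fits put a member past the threshold is therefore no separate support. The labels carry description codes whose meaning they do not give. Double sample 1 and triple samples 4, 5 and 6 carry the code SN930. Within it, the log2 fold change was -3.80 for Hes6, -1.82 for Dll1, -0.63 for Notch3, -1.10 for Heyl and 0.09 for Hes1. Among the samples with other codes it was -3.05, -2.84, -1.93, -3.60 and -1.46 in the same order. Hes6, Dll1, Notch3 and Heyl were lower in both sets, by amounts that differed most for Heyl, and Hes1 was lower in 1 set only. Each set holds a different double sample, so code and sample cannot be told apart.

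**Figure D2:**
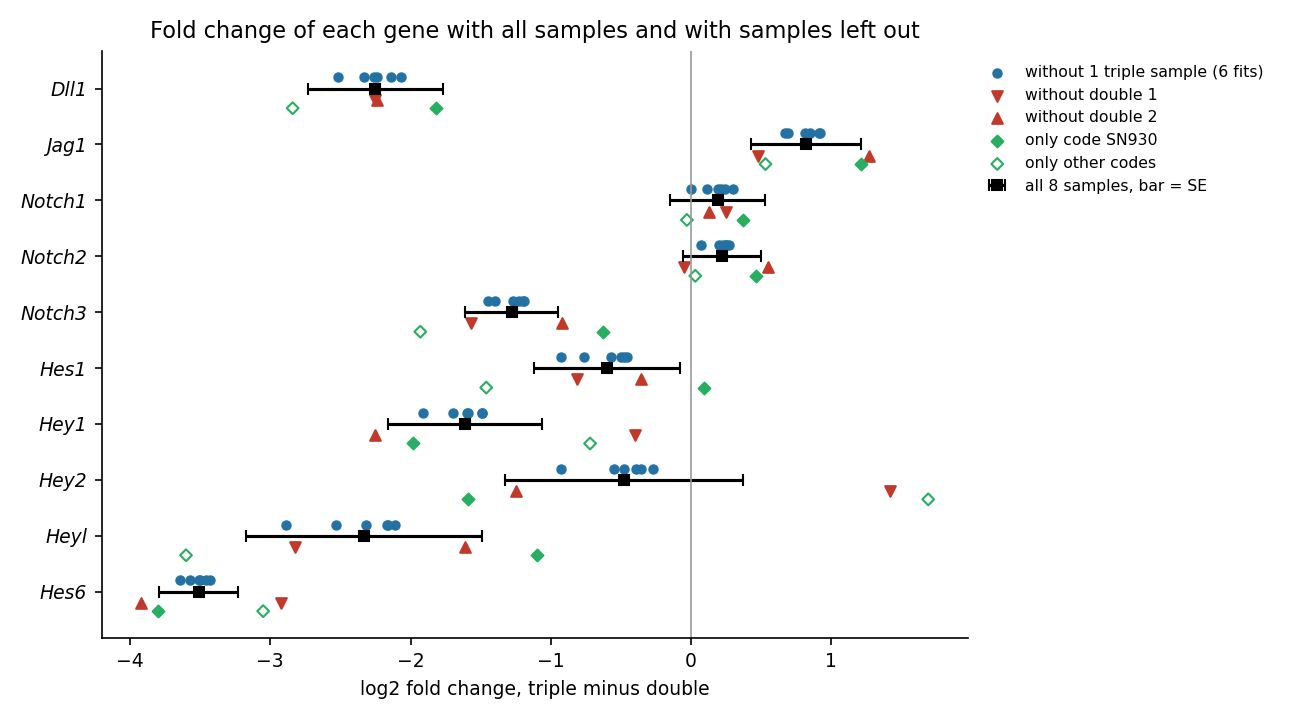
Log2 fold change (triple minus double) of each gene; black squares are the fit on all 8 samples with bars of 1 SE, blue points leave out 1 triple sample, red triangles leave out 1 double sample, and green diamonds use samples of 1 set of description codes. Hes6 stays between -3.92 and -2.92 and Dll1 between -2.84 and -1.82, whereas Hey2 spans both signs.

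Counting reads over exons favours long genes, so levels of different members were compared per kilobase of exon (CPM per kb). The length was the union of all annotated exons, 14232 bases for Notch1. Where that union exceeds the expressed transcript, the value and rank of the gene are too low. In the double samples Hes6 ranked first at 87.1 ± 42.1 CPM per kb (SD, n = 2), above Hes1 at 26.5 ± 5.35 with no overlap between the ranges of these genes. Heyl (18), Notch3 (16.7) and Notch2 (12.8) followed with overlapping ranges, then Dll1 (8.31), Hey1 (6.95), Jag1 (5.01), Notch1 (4.75) and, lowest without overlap, Hey2 (0.646). In the triple samples the order was Hes1 at 17.4 ± 10.4 CPM per kb (SD, n = 6), Notch2 (14.8), Jag1 (8.82), Hes6 (7.64), Notch3 (6.86), Notch1 (5.41), Heyl (3.57), Hey1 (2.27), Dll1 (1.75) and Hey2 (0.463). There each gene's range overlapped that of the next in the order. Hes6 was thus first of 10 in the double samples and 4th in the triple samples, while Jag1 was 8th and 3rd.

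The makeup of the receptor and ligand transcripts was set out per kilobase within each sample, which needs no scaling between samples. Notch3 made up 43.2% and 47.0% of the sum of the 4 receptors in the double samples and 16.8% to 27% in the triple samples. Notch2 made up 33.7% and 35.5% in the double samples and 33.2% to 57.4% in the triple samples, with triple sample 6 the lowest. Dll1 made up 44.4% and 42.6% of the sum of Dll1, Dll4, Jag1 and Jag2 in the double samples and 5.94% to 16.5% in the triple samples. Jag1 made up 19.7% and 32.5% in the double and 51.2% to 69.3% in the triple samples. Within each sample, then, Dll1 was the most abundant of these ligands in both double samples and Jag1 in all 6 triple samples. The smallest count behind these member shares was 76, for Dll1 in triple sample 3, and the shares describe samples with no test.

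**Figure D3:**
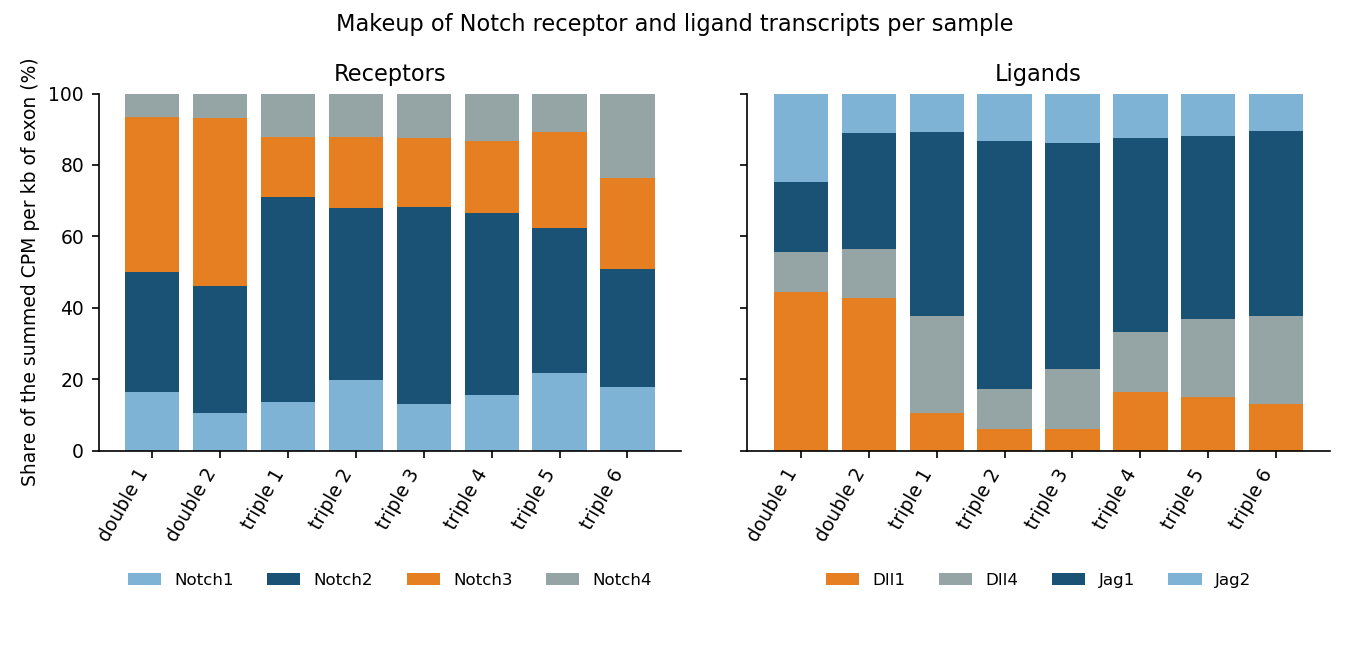
Share of each receptor (left) and ligand (right) in the summed CPM per kilobase of exon, in percent, 1 stacked bar per sample. The orange segments shrink from the double to the triple samples: Notch3 from 43.2% and 47.0% to at most 27%, and Dll1 from 44.4% and 42.6% to at most 16.5%.

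The other genes of the pathway were taken from 8 lists by role, 62 genes in all, of which 57 were tested. Of these, 2 rose and 1 fell in the triple samples and 54 did not pass the test, 5.26% called against 8.35% over all genes. Their median log2 fold change was -0.03. Lfng, a fringe enzyme that adds sugar to Notch receptors and alters which ligands they favour, rose from 9.03 and 20 CPM in the double samples to between 34.7 and 51.6 CPM in the triple knockouts. The groups did not overlap (log2 fold change 1.53 ± 0.33 SE, edgeR adjusted p = 0.0288). Dtx3, a Deltex family ubiquitin ligase, rose from 66.8 and 77.1 CPM to between 101 and 141 CPM (0.79 ± 0.18 SE, edgeR adjusted p = 0.0342). Neurl1a, of the Neuralized family of ubiquitin ligases that act on Notch ligands, fell from 274 and 58.5 CPM to between 10.4 and 37.0 CPM (-2.61 ± 0.56 SE, edgeR adjusted p = 0.0287). Its double samples differed 4.68-fold from each other, and without double sample 1 its log2 fold change was -1.11 (edgeR adjusted p = 0.438).

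These 3 genes lay near the threshold, and leaving out 1 sample often ended the call. Without double sample 1, Lfng was at 1.06 (edgeR adjusted p = 0.122) and Dtx3 at 0.68 (edgeR adjusted p = 0.183). Lfng and Dtx3 also missed the threshold without triple sample 1, 2, 3, 5 or 6, and Neurl1a without triple sample 1, 3, 5 or 6. In those fits without a triple sample the log2 fold change stayed close to that of all 8 samples, at 1.46 to 1.58 for Lfng, 0.75 to 0.79 for Dtx3 and -2.73 to -2.50 for Neurl1a. Over the 8 fits with 1 sample left out, the edgeR adjusted p of those that missed was 0.0509 to 0.122 for Lfng, 0.0604 to 0.183 for Dtx3 and 0.0506 to 0.438 for Neurl1a. Neurl1a also missed it with limma-voom (adjusted p = 0.0631) and with the description code as a term (edgeR adjusted p = 0.0632), and Dtx3 without the filter on low counts (edgeR adjusted p = 0.0539). Among the samples with codes other than SN930 none of the 3 passed, and within SN930 only Lfng did (edgeR adjusted p = 0.0357). Their directions were the same in all 17 alternative fits.

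The lists by role held few calls. Lfng was the 1 of 5 tested receptor glycosylation genes called, Neurl1a the 1 of 4 for ligand endocytosis, and Dtx3 the 1 of 9 inhibitors and turnover genes. None was called among 5 other receptors and ligands, 10 receptor cleavage genes, 7 of the nuclear complex, 10 corepressors and 7 other Hes and related repressors. The fourth receptor, Notch4, stood at 16.3 and 24.4 CPM in the double knockouts and at 24.1 to 67.2 CPM in the triple knockouts (0.83 ± 0.42 SE, edgeR adjusted p = 0.228). Dll4, the ligand of sprouting vessels, was at 0.42 ± 0.54 (SE; edgeR adjusted p = 0.64), and Jag2 at -0.87 ± 0.36 (SE; edgeR adjusted p = 0.161), with 15.0 CPM in double sample 2 and 32.5 CPM in double sample 1. Rbpj averaged 72.0 ± 8.75 CPM (SD, n = 2) and 72.5 ± 23.9 CPM (SD, n = 6). The log2 fold change was 0.01 ± 0.33 (SE; edgeR adjusted p = 0.987). Nrarp, a feedback inhibitor that Notch itself induces, was at 0.79 ± 0.47 (SE; edgeR adjusted p = 0.302), with 4.13 and 9.49 CPM in the double knockouts and 6.71 to 19.1 CPM in the triple knockouts. Hes5, a Notch target of neural tissue, had 0 counts in all 8 samples, which allows a level of up to 0.0127 CPM over their summed total (3 counts, counting error only).

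**Figure D4:**
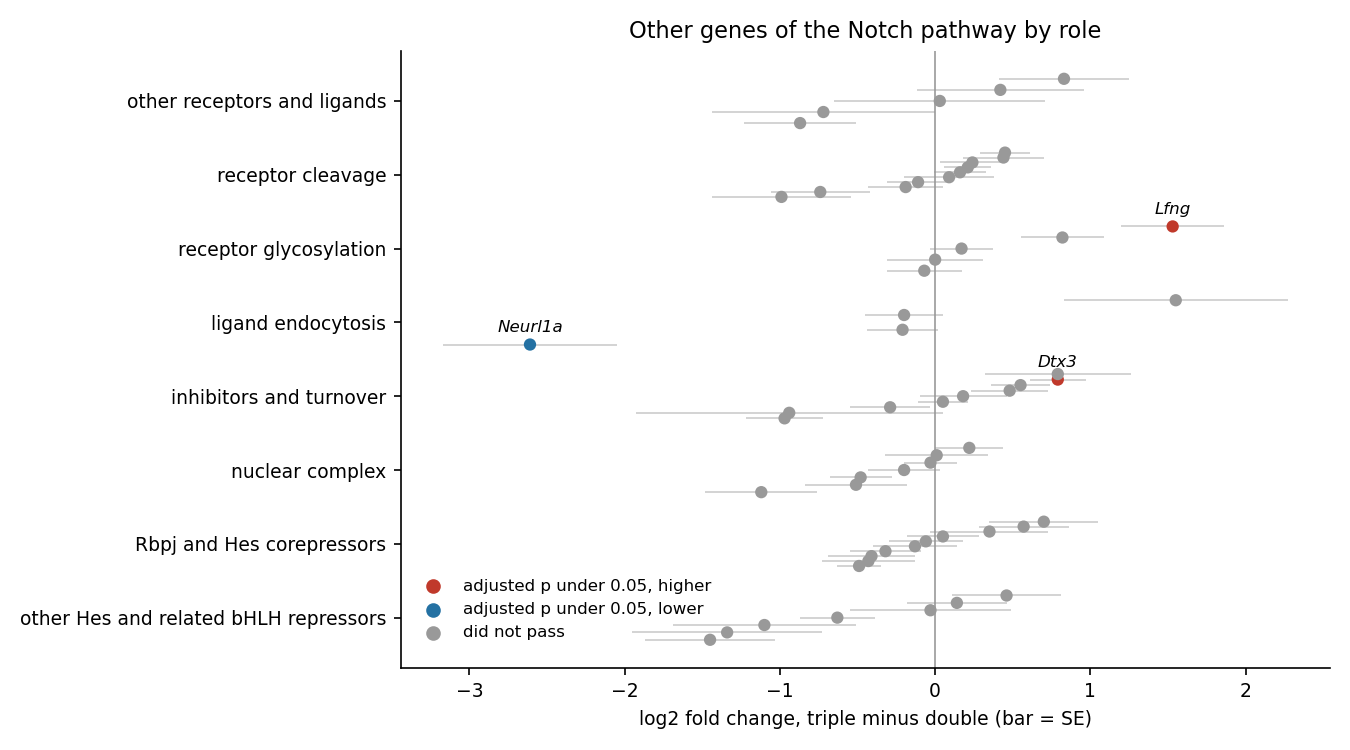
Log2 fold change (triple minus double, bars 1 SE) of the 57 tested pathway genes that are not members, grouped by role; red and blue points passed the threshold of adjusted p under 0.05 in edgeR's test, grey points did not. Lfng at 1.53 and Dtx3 at 0.79 lie to the right and Neurl1a at -2.61 to the left.

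Markers of other cell types were measured beside the members. Of 10 embryonic muscle markers 9 were called lower, among them Myod1, Myog and Cdh15. Pax7, also called, overlapped between the groups. It stood at 42.6 and 0.361 CPM in double knockouts 1 and 2 and at 0.0332 to 0.697 CPM in the triple knockouts. The summed level of the 10 markers was 4140 and 1670 CPM in double knockouts 1 and 2 and 2.88 to 76.1 CPM in the triple knockouts. This sum was high in the same 2 samples as Hes6 and Dll1, and its part in their levels was not tested. Myh3 was its largest part in both, at 2450 and 636 CPM in double knockouts 1 and 2. Myod1 (95.9 and 128 CPM) and Cdh15 (333 and 343 CPM) were instead higher in double sample 2. None of the 10 adult skeletal muscle markers passed, with sums of 68900 and 2630 CPM in the double and 131 to 14000 CPM in the triple knockouts. Double sample 1, with the higher adult muscle sum of its group, had 211 CPM of Hes6 and 35.3 CPM of Dll1. Triple sample 2, with the highest adult muscle sum of its group, had 11.3 CPM of Hes6 and 4.56 CPM of Dll1. The part of adult muscle in these levels was not tested.

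For vessels, 1 of 12 endothelial markers was called lower, Tek, the angiopoietin receptor, at the edge of the threshold (edgeR adjusted p = 0.0499). Its groups overlapped, at 89.7 and 20.8 CPM in the double and 9.91 to 22.7 CPM in the triple knockouts. The summed level of the 12 markers was 620 and 461 CPM in the double knockouts and 375 to 920 CPM in the triple knockouts. The highest sums were those of triple samples 5 (920 CPM) and 6 (781 CPM). The same samples held the 2 highest triple levels of Hes1, Hey1, Heyl, Notch1, Notch3 and Dll1, but not of Notch2, Jag1, Hey2 and Hes6. Among the triple samples Notch2 was highest in sample 1 (240 CPM) and lowest in sample 6 (125 CPM). Jag1 and Hey2 were highest in sample 2 (73.5 and 5.00 CPM), and Hes6 in samples 6 and 3 (17.8 and 16.6 CPM). None of 10 mural markers passed, with sums of 436 and 407 CPM against 287 to 559 CPM, again highest in triple samples 5 and 6. These markers differed widely in level. Pdgfrb stood at 130 and 232 CPM in the double and 91.3 to 201 CPM in the triple knockouts. Higd1b and Cox4i2 were at or below 1.73 and 1.77 CPM in every sample. Mcam was at 197 and 163 CPM in triple samples 5 and 6 and at 58.4 to 97.4 CPM in the other triple samples. The part of vessel cells in the members' levels was not tested beyond the relation given below. Of 10 leukocyte markers 2 rose (Itgam and Cd68), with summed levels of 909 and 1980 CPM in the double knockouts and 1940 to 2800 CPM in the triple knockouts. Of 5 tested epithelial markers 1 rose (Epcam), with sums of 5.63 and 8.63 CPM against 6.07 to 39.5 CPM. None of 6 tested neural and glial markers passed, with sums of 93.5 and 254 CPM against 100 to 465 CPM.

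Variation inside the triple genotype was not used to choose the members. There 4 relations were tested across the 6 samples on log2 CPM, with exact permutation tests, 2-sided. The relations were chosen with earlier results of these data known, and the mural markers after their values were seen. Notch1 and its target Hes1 had Pearson's r = 0.73 (exact permutation p = 0.10, adjusted over the 4 relations 0.15) and Spearman's rho = 0.60 (exact permutation p = 0.242, adjusted 0.322). Without the 2 samples farthest from the median of Notch1, r was 0.68. Notch3 and Heyl had r = 0.72 (exact permutation p = 0.112, adjusted 0.15) and rho = 0.71 (exact permutation p = 0.136, adjusted 0.272). Jag1 and Hey1 had r = 0.47 (exact permutation p = 0.354, adjusted 0.354) and rho = 0.37 (exact permutation p = 0.497, adjusted 0.497), and r = 0.39 without 2 samples. Notch3 and the summed mural markers had r = 0.79 (exact permutation p = 0.0625, adjusted 0.15) and rho = 0.77 (exact permutation p = 0.103, adjusted 0.272). None of the 4 relations passed the threshold. Without triple samples 5 and 6, r was -0.27 for Notch3 with Heyl and -0.08 for Notch3 with the mural markers, so these 2 values rest on those samples.

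Genes with a profile like that of Heyl, Hes6 or Dll1, the 3 members of widest range, were ranked by the root mean square difference of centred log2 CPM over the 8 samples, among 13306 known genes with a mean of at least 1 CPM. Nearest to Hes6 was Rassf7, at a difference of 0.18, with 24.4 and 15.4 CPM in the double knockouts and 0.896 to 2.13 CPM in the triple knockouts. Glt28d2 (0.35), Sntb1 (0.37, a syntrophin of the dystrophin complex), Frem1 (0.39) and Strip2 (0.41) followed. Nearest to Dll1 were Lypd6 (0.41), Scx (0.43, the tendon factor scleraxis), Gpc1 (0.43, a glypican), Tcaf2 (0.51) and Fbxo17 (0.52). Gpc1 stood at 1110 and 554 CPM in the double knockouts and at 65.7 to 214 CPM in the triple knockouts. Nearest to Heyl were Gpr182 (0.55), Dmp1 (0.59), Igfbp5 (0.64, a binding protein of insulin-like growth factors), Scml4 (0.64) and Adamts17 (0.66). Like Heyl, Igfbp5 was at its lowest in triple sample 4 (63.6 CPM), whereas its highest triple level was in sample 6 (1540 CPM). The closest match by this measure was that of Rassf7 to Hes6, and no gene came as near to Dll1 or Heyl.

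The genes beside the 3 members past the threshold were read from the same fit, the 2 nearest tested genes on each side, a choice made after their values were seen. Values are log2 fold changes. Beside Hes6, Erfe, which encodes the hormone erythroferrone, 37266 bases away, was lower, at -3.13 ± 0.61 (SE, edgeR adjusted p = 0.0222). Ilkap, between Erfe and Hes6, was at -0.77 ± 0.21 (SE; edgeR adjusted p = 0.0584), and the clock gene Per2, 1944 bases away on the other side, at -0.69 ± 0.63 (SE; edgeR adjusted p = 0.493). Beside Notch3, Hsf2bp was lower, at -3.94 ± 0.59 (SE, edgeR adjusted p = 0.00874). Rrp1b, which lies between Hsf2bp and Notch3, was at 0.15 ± 0.25 (SE, edgeR adjusted p = 0.724). Ephx3, 16890 bases from Notch3 on the other side, was at 2.30 ± 0.70 (SE; edgeR adjusted p = 0.0773). None of the 4 genes beside Dll1 passed. In all, 2 of the 12 neighbours passed the test, against 8.35% of all genes tested.

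Exons of 4 members overlap another annotated gene, and reads of overlapping genes cannot be told apart because the use of strand in the counting is not given. Dll1 shares 867 bases with the opposite-strand A930024N18Rik, which stood at 1.74 and 1.30 CPM in the double knockouts and at 0.267 to 0.863 CPM in the triple knockouts. Notch3 shares 488 bases with Gm17276, at or below 0.445 CPM in every sample. Notch1 shares 1068 bases with 0610009E02Rik, at or below 1.99 CPM, and 414 bases with Gm13568, at or below 0.16 CPM. Notch2 shares 541 bases with Gm42820, at or below 1.12 CPM. Each overlapping gene thus had far fewer counts assigned than the member in the same sample. No exon overlap was found for Hes6, Hes1, Hey1, Hey2, Heyl or Jag1. Of the pathway genes named above, Nrarp shares 2051 of its 2582 exonic bases with the opposite-strand Gm38287. Neurl1a shares 690 bases with the same-strand AC132288.2. Hes5 shares 433 with Gm20421 and Dll4 214 with Gm14207, both on the opposite strand. Any effect of these overlaps on the counts was not examined.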

How the data were processed

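RNA was measured in 8 samples from total RNA with mRNA enrichment. Each sample has a table of raw counts per gene, as the authors deposited them. HTSeq, DESeq2, mm10 and GRCm38 are named, per the submitters' processing notes, without their roles. Aligner and strand setting: not given in the sources used here. Symbols were found for 52403 of 52636 genes, and exon lengths came from GENCODE M21 (49870 genes had its coordinates). Coordinates are counted from 1 on GRCm38.

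After filterByExpr and TMM scaling, the quasi-likelihood test of edgeR 4.0.16 was run (R 4.3.3), triple minus double, without covariates, calling genes at a Benjamini-Hochberg adjusted p under 0.05. Standard errors came from the test statistic. Log2 CPM used a prior count of 2. No 2 samples agreed within sampling noise (lowest median chi-square per gene 8.33). Alternatives were DESeq2 1.42.0, limma-voom (limma 3.58.1), RLE and upper-quartile scaling, 2 other filters, the description code as a term and each sample left out. Fits within 1 set of codes were added after seeing the data.

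Groups come from the genotype label. Replicate numbers follow accession order and pair no samples. The members, gene lists, tests and naming rule were chosen with earlier results of these data known. Named are the members, called pathway genes, a fixed set of 7 pathway genes, the 5 genes most like each of the 3 members of widest range, and Bap1. Cell type markers, neighbouring genes and overlapping genes named beside them fall outside this rule and were chosen after their values were seen.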

Additional observations from a re-analysis of the deposited data

Results flagged for a closer look

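Notch4 stood at 67.2 CPM in triple sample 6, and the next highest triple sample was at 37.8 CPM. On the CPM scale, without logs, the gap took up 0.681 of the range of the 6 samples, above Dixon's limit of 0.625. The flag depends on that scale. Of 18 genes examined in this way, chance flags about 1 in 20. The same sample held the highest level of Dll4 among the triple samples, at 22.3 CPM, and an endothelial marker sum of 781 CPM, second to that of triple sample 5 (920 CPM). Notch4 there made up 23.8% of the receptor sum per kilobase, against 10.8% to 13.3% in the other triple samples. The part of endothelial cells in this value was not tested.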

How the results depend on the processing

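No paired analysis was possible because replicate numbers were given in accession order. Across all genes, 1478 were called, 3380 with DESeq2, 962 with the description code as a term, 1 within the codes other than SN930, and 315 to 5579 with 1 sample left out, the extremes being without double sample 1 and without double sample 2. Of the 57 other pathway genes tested 3 were called, and 10 with DESeq2, which called 3380 of 17709 genes over all. With 1 triple sample left out 0 to 3 were called, against 635 to 930 over all genes. The count was 0 without triple sample 1, 3, 5 or 6, where 11 to 14 of the 57 had an unadjusted edgeR p under 0.05. Over all genes that held for 4243 of 17576 without triple sample 1 and 4507 of 17626 without triple sample 6. Of the 10 members 3 were past the threshold, 5 with DESeq2 (Hey1 and Heyl in addition), and 1 or 2 with 1 triple sample left out. The counts over all genes given above for these fits apply here too, and nothing is read from the member counts. The cause of these differences was not tested. The fits within codes and those without a double sample hold 1 double sample each. None of the 4 relations inside the triple genotype crossed the threshold under another scaling, Spearman's rho or any sample left out. No called gene named from the pathway changed direction. The lowest count of a member in any sample was 15, for Hey2, where counting error is widest.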
